A study of Oryza sativa with 6 samples.

Results

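In rice roots grown with salt, 70 loci had higher read counts in nodal roots and in L-type lateral roots and lower read counts in S-type lateral roots than in the matching control roots. They were chosen by those measured values, out of 37938 loci in the deposited count table. A locus was taken when its deposited count (reads divided by a size factor for the library) was at least 2-fold higher under salt than under control in both nodal and L-type roots, and at least 2-fold lower under salt in S-type roots. The folds were computed after adding 1 to each count, and the higher library of each salt and control pair had to hold at least 50. That minimum was met in every pair by 10332 loci, so the 70 loci are 0.678% of the loci that could have been chosen. The directions of the salt changes are therefore the way the loci were selected and are given below as a description, without a test; rose and fell are used for changes past that 2-fold rule.

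The RNA came from IR29 rice, a salinity sensitive cultivar according to the title of the series. The groups were salt nodal, control nodal, salt L-type, control L-type, salt S-type and control S-type roots, with 1 library in each. All groups are of the IR29 genotype. The treatment time is given as 7 days for all groups, control and salt, and the salt groups had 50 mM NaCl. No plant age, pooling of plants or replicate is given in the labels. There is thus no spread between replicates, and every interval below covers counting error only. Depth was similar in all libraries, at 3839177 to 4249872 reads assigned to loci. The size factors differed more: 1 read stood for 1.26 deposited counts in salt S-type and for 0.85 in salt nodal roots.

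The root system of rice is built from shoot-borne nodal (crown) roots, which form the main axes, and from lateral roots that branch from them. S-type laterals are short and thin and do not branch, whereas L-type laterals are longer and thicker and carry further laterals. Salt affects roots both through low water potential and through sodium and chloride ions, and root types can differ in their growth response to it.

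The deposited files pair no gene ID with a name. Of the 69 loci in the group that carry a rice gene ID, 0 matched the RefSeq gene table of assembly ASM3414082v1, which matched 1 of all 36773 gene IDs in the files, and 1 of the 70 loci has no gene ID. No function is therefore stated for any of them, only 4 IDs are printed, and no sequence is shown. The 4 are those with the largest mean rise in nodal and L-type roots (2 loci) and the largest fall in S-type roots (2 loci), among loci with at least 100 in the higher library of each pair.

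The 70 loci had their highest median in salt nodal roots and their lowest in control L-type roots. In salt nodal roots the deposited counts of the 70 loci ranged from 51.87 to 12399.5 with a median of 383.0, against 3.7 to 3086.8 with a median of 62.9 in control nodal roots. In L-type roots the salt library ranged from 63.91 to 6316.9 (median 259.7) and the control library from 0.8627 to 1655.6 (median 46.16). The plot of levels by library shows that the lines of nodal and L-type roots are higher at salt and those of S-type roots higher at control, as the selection requires, while the groups of loci overlap widely in each panel.

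In S-type roots the salt library ranged from 2.524 to 2324.9 with a median of 71.31, and the control library from 50.55 to 6657.4 with a median of 232.5. Over the 10332 loci the library medians lay much closer together, at 159.9 in salt nodal and 171.1 in control nodal roots, 168.0 in salt L-type and 176.9 in control L-type roots, and 185.5 in salt S-type and 189.8 in control S-type roots. None of the 70 loci was at 0 in any library. Fewer than 10 reads were found for 4 of them in control nodal, 5 in control L-type and 8 in salt S-type roots, so folds of those loci rest on few reads. These are whole-tissue samples, in which fewer cells of a type and less RNA per cell cannot be told apart.

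**Figure D1:**
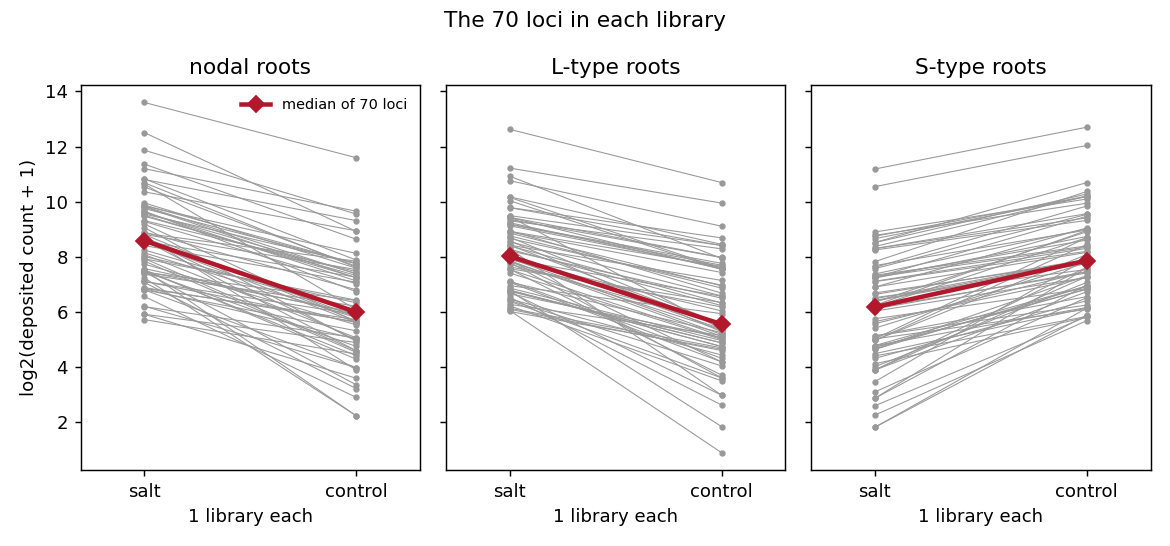
Deposited counts of the 70 loci as log2(count + 1), with 1 grey line per locus from the salt to the control library of nodal, L-type and S-type roots; the red diamonds are medians over the 70 loci. The median counts are 383.0 and 62.9 in salt and control nodal roots, 259.7 and 46.16 in salt and control L-type roots, and 71.31 and 232.5 in salt and control S-type roots.

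The sizes of the salt changes differed among the loci. The log2 salt change of the 70 loci had a median of 2.26 in nodal roots (range 1.01 to 5.30, interquartile range 1.51 to 3.06). Over the 10332 loci the nodal median was -0.14, and 9.56% of them were at least 2-fold higher. In L-type roots the median of the 70 was 1.92 (range 1.02 to 5.32, interquartile range 1.47 to 2.74), beside -0.12 over all, where 13.7% were at least 2-fold higher. In S-type roots it was -1.67 (range -4.74 to -1.02, interquartile range -2.56 to -1.27), beside 0.02 over all, where 11.1% were at least 2-fold lower. The fall in S-type roots was the smallest of the 3 changes for 33 loci and the largest for 20. The nodal change was the largest for 27 loci and the L-type change for 23.

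Only 10 of the 70 loci differed at least 4-fold in all 3 root types, 38 did so in at least 2 of them, and 10 in none. At least 8-fold was reached by 19 loci in nodal roots, 11 in L-type roots and 14 in S-type ones. All 70 had passed 2-fold in each root type by selection, and no share over all loci is given for these higher bounds. The counts are a description, and nothing is read from their size. The 95% counting interval of the salt to control ratio (exact conditional binomial, Clopper-Pearson, on recovered reads) excluded 1 for 70 of 70 loci in each root type, which the 2-fold rule and the minimum of 50 on the same counts all but fix. PCR reads without molecular identifiers are not independent molecules, and the intervals say nothing of variation between plants.

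Among the 10 loci with at least 4-fold changes everywhere, the median count was 395.0 in salt nodal against 40.24 in control nodal roots, and 227.3 in salt L-type against 34.51 in control L-type roots. In S-type roots it was 25.24 under salt against 164.0 under control. Their log2 changes lay between 2.21 and 4.88 in nodal, 2.05 and 5.16 in L-type, and -4.74 and -2.11 in S-type roots. In each root type the range begins near the 4-fold bound that defines this subset.

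**Figure D2:**
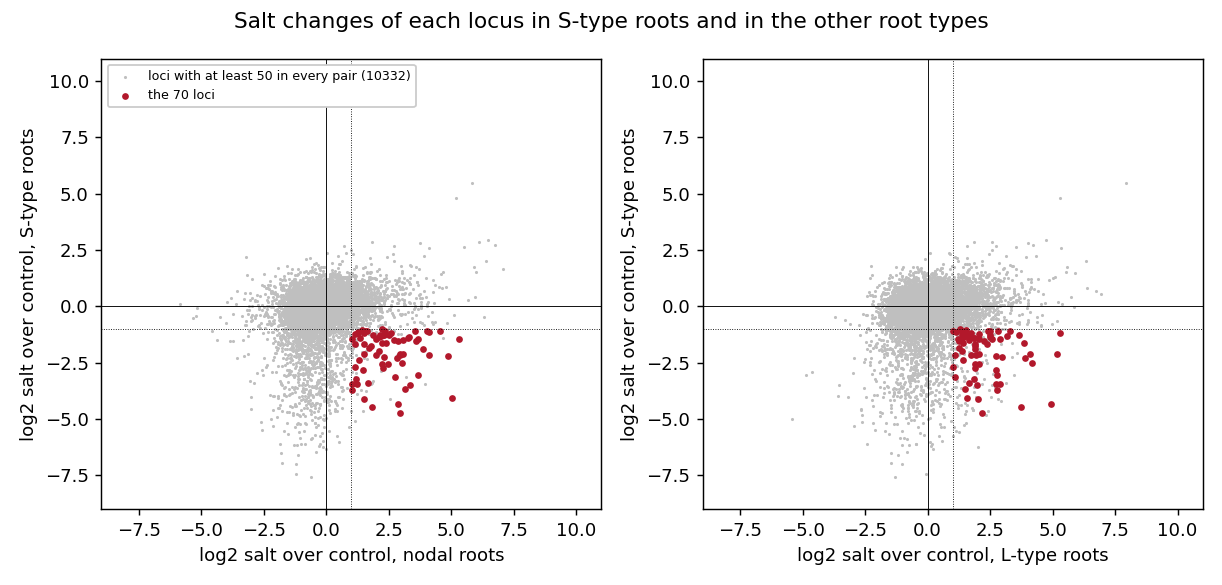
Log2 ratio of salt over control deposited counts (1 added to each) in S-type roots, on the vertical axis, against nodal (left panel) and L-type roots (right panel); grey points are the 10332 loci with at least 50 in the higher library of every pair, red points the 70 loci, and dotted lines the 2-fold bounds. The red points run from 1.01 to 5.30 in nodal, 1.02 to 5.32 in L-type and -4.74 to -1.02 in S-type roots.

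Of the 2 loci with the largest mean rise in nodal and L-type roots, Os05g0399700 rose most in L-type roots. The locus lies on chromosome 5 from 19426180 to 19447487 (coordinates as deposited, build IRGSP-1.0 per the submitters' processing notes). Its deposited count was 896.2 in salt nodal against 149.9 in control nodal roots, a ratio of 5.98 (95% counting interval 5.06 to 7.1). In L-type roots it was 314.1 under salt against 6.902 under control, where 344 reads stood against 8. That is a ratio of 45.5 with a wide interval, 22.8 to 106. In S-type roots it was 477.1 under salt against 1094.0 under control (ratio 0.436, interval 0.386 to 0.492), so that its 2 highest libraries were control S-type and salt nodal roots.

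Os02g0684400 rose most in nodal roots. It lies on chromosome 2 from 27984844 to 27990398. Its count was 436.2 in salt nodal against 13.88 in control nodal roots, a ratio of 31.4 (95% counting interval 18.9 to 56.6). In L-type roots it was 231.9 under salt against 33.65 under control, a ratio of 6.89 (4.91 to 9.92). In S-type roots it was 151.5 under salt against 709.9 under control, a ratio of 0.213 (0.174 to 0.26). The control S-type library was the highest of the 6 for this locus too.

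The 2 loci with the largest fall in S-type roots had fewer than 10 reads there under salt. Os02g0269200, on chromosome 2 from 9641603 to 9642596, had a count of 6.311 in salt S-type against 194.3 in control S-type roots, or 5 reads against 173. The ratio was 0.0325 (95% counting interval 0.0104 to 0.0773). In nodal roots its count was 378.4 under salt against 48.1 under control, and in L-type roots 211.8 under salt against 46.59 under control. Here salt nodal roots were highest.

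Os07g0498400, on chromosome 7 from 18688391 to 18692308, had a count of 10.1 in salt S-type against 243.7 in control S-type roots, or 8 reads against 217. The ratio was 0.0414 (95% counting interval 0.0177 to 0.0831). In nodal roots its count was 113.9 under salt against 31.45 under control, a ratio of 3.62 (2.47 to 5.45). In L-type roots it was 105.0 under salt against 6.902 under control, a ratio of 15.2 (7.47 to 36.1). Per transcript length it was the weakest of the 4, with 7.8 FPKM (fragments per length of transcript, scaled for depth) in salt nodal roots, against 149, 204 and 259 FPKM there for Os02g0269200, Os02g0684400 and Os05g0399700.

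S-type roots stood at opposite ends of the 3 root types under salt and under control for most of the 70 loci. Under salt, S-type roots had the lowest of the 3 levels for 65 loci (34.9% of the 10332) and nodal roots the highest for 48 (35% of the 10332). Under control, S-type roots had the highest level for 61 loci (37.5% of the 10332). For 56 of the 70 loci S-type roots were both lowest under salt and highest under control, an order found in 5.84% of the 10332 loci. The full order of the 3 root types was reversed between treatments at 19 of the 70 (6.95% of the 10332). These counts use the same libraries as the selection, which favours loci that were high in control S-type roots and low in control nodal and L-type roots, so nothing is read from them beyond the levels. At 26 loci salt S-type was the lowest of all 6 libraries (20.1% of the 10332), at 25 it was control L-type (17%) and at 19 control nodal (21.1%). By the selection no other library could be lowest.

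**Figure D3:**
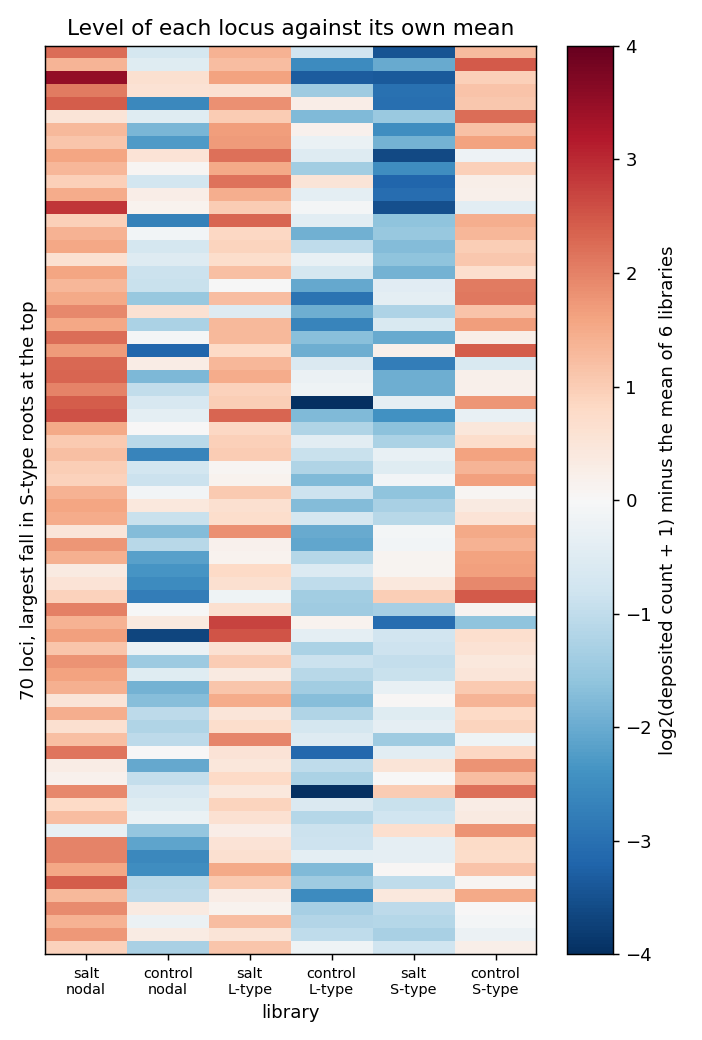
Level of each of the 70 loci (rows, sorted by the change in S-type roots) in the 6 libraries (columns), as log2(deposited count + 1) minus the mean of the locus over the 6 libraries; red is above and blue below that mean. Salt nodal was the highest library for 37 loci (9.49% of the 10332), salt L-type for 13 (8.65%) and control S-type for 20 (12.5%). By the selection no other library could be highest.

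The differences between root types within a treatment were large in both directions. They use the same libraries as the selection, which favours low S-type levels under salt and high ones under control. The shares over all loci are therefore given as a description, and nothing is read from the contrast. Under salt, the log2 level in S-type roots minus that in nodal roots had a median of -2.55 over the 70 loci, with 60 loci at least 2-fold lower in S-type roots and 0 higher; over the 10332 loci, 15.5% were lower 21% higher and the median was 0.11. S-type minus L-type roots under salt had a median of -1.90, with 52 loci lower and 1 higher, beside 11.5% lower and 15% higher over all. Under control, S-type minus nodal roots had a median of 1.86, with 45 loci higher and 1 lower, beside 21.4% higher and 15.2% lower over all. S-type minus L-type roots under control had a median of 1.89, with 56 higher and 1 lower, beside 18.4% higher and 7.46% lower over all.

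At the 70 loci, the median difference was smaller between L-type and nodal roots than between either of them and S-type roots. Differences of opposite sign cancel in such a median. Under salt, L-type minus nodal roots had a median of -0.58, with 4 loci at least 2-fold higher (9.11% over all), 20 lower (6.1% over all) and 46 within 2-fold (84.8% over all). Under control the median was -0.29, with 17 higher (13.6% over all), 23 lower (16.5% over all) and 30 within 2-fold (69.9% over all). In both treatments the share within 2-fold was smaller than over all loci. The distance between the highest and the lowest of the 3 root types had a median of 2.57 on the log2 scale under salt and 2.53 under control, against 0.85 and 1.04 over the 10332 loci. The selection forces a difference between root types at each locus, so nothing is read from the larger distances. It also requires nodal and L-type roots to change in the same direction, so nothing is read from their smaller median differences either.

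**Figure D4:**
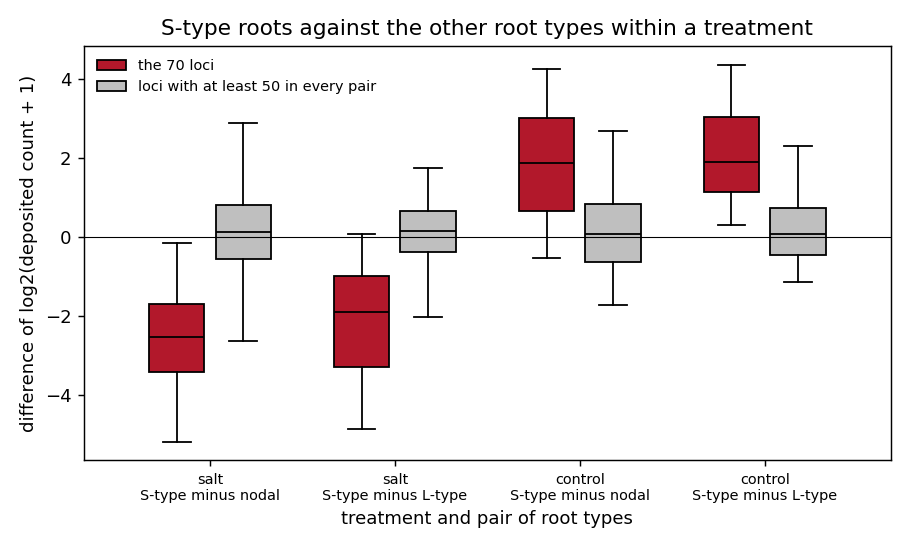
Difference of log2(deposited count + 1) between S-type roots and nodal or L-type roots within each treatment, for the 70 loci (red) and the 10332 loci with at least 50 in every pair (grey); lines in the boxes are medians, boxes the interquartile range and whiskers the 5th to 95th percentiles. The medians of the 70 loci are -2.55 and -1.90 under salt and 1.86 and 1.89 under control.

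The salt levels in nodal and L-type roots were set beside those of control S-type roots, where the 70 loci were high without salt. Salt nodal roots minus control S-type roots had a median log2 difference of 0.66, with 25 loci at least 2-fold higher (8.95% over all), 9 lower (19.5% over all) and 36 within 2-fold (71.6% over all). Salt L-type minus control S-type roots had a median of 0.11, with 12 higher (5.73% over all), 15 lower (15% over all) and 43 within 2-fold (79.3% over all). Scaling by library totals moved these medians to 1.04 and 0.50, and those of all 10332 loci to 0.29 and 0.22 from -0.09 and -0.17. In the same way, salt S-type minus control nodal roots had a median of -0.30, with 20 loci higher (24.7% over all) and 24 lower (21.4% over all), and salt S-type minus control L-type roots one of 0.24, with 20 higher (19.3% over all) and 17 lower (14.5% over all). Those comparisons mix root type and treatment, which cannot be told apart in them.

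The loci also differed in which library was highest, which the selection limits to salt nodal, salt L-type and control S-type roots. Over the 10332 loci these were highest at 9.49%, 8.65% and 12.5%, in that order. For the 37 loci highest in salt nodal roots, the median count was 533.1 there, 238.3 in salt L-type and 220.2 in control S-type roots. For the 20 loci highest in control S-type roots it was 419.5 there, with 276.3 in salt nodal and 205.9 in salt L-type roots. For the 13 loci highest in salt L-type roots it was 373.4 there, with 244.9 in salt nodal and 155.0 in control S-type roots. The median nodal change in these 3 sets was 2.32, 2.34 and 2.23 on the log2 scale. The median L-type change was 1.90, 1.90 and 2.58, and the median S-type change -1.69, -1.64 and -1.60, in the same order of sets. The sets were formed from the same counts, so differences between their changes are partly built in.

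Together the 70 loci took 1.68% of the deposited counts in salt nodal against 0.308% in control nodal roots, 0.999% in salt L-type against 0.288% in control L-type roots, and 0.234% in salt S-type against 0.799% in control S-type roots. A single locus, the longest of the group, was the highest of the 70 in salt nodal roots with a count of 12399.5. Without it the summed counts were 46377.4 in salt nodal against 9007.8 in control nodal roots, 28687.3 in salt L-type against 7995.0 in control L-type roots, and 11139.7 in salt S-type against 34985.6 in control S-type roots. The sum of the other 69 loci had the same direction in each root type, which the selection fixes for any part of the group.

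Opposite salt changes in S-type and in the other root types were one of several patterns in the data. Among the 10332 loci, 311 differed at least 2-fold in all 3 root types. Of these, 132 were lower in all 3 (1.28% of the 10332), 79 higher in all 3 (0.765%) and 70 higher in nodal and L-type and lower in S-type roots (0.678%). The mirror pattern, lower in nodal and L-type and higher in S-type roots, was found at 9 loci (0.0871%). The remaining patterns held 0, 2, 8 and 11 loci. Of all 10332 loci, 3.58% were at least 2-fold higher in S-type roots and 11.1% lower. Nodal and L-type roots moved in opposite directions at 21 of the 311.

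Being lower in S-type roots was about as frequent among loci that rose in the other root types as among all loci. Of the 505 loci at least 2-fold higher under salt in both nodal and L-type roots, 13.9% were lower in S-type roots, against 11.1% of all 10332. By contrast 15.6% of the 505 were higher in S-type roots as well, against 3.58% of all. The other way round, 6.09% of the 1149 loci lower in S-type roots were higher in both other root types, against 4.89% of all. The share of the opposite pattern was thus near the background, and its difference from the background was not tested.

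**Figure D5:**
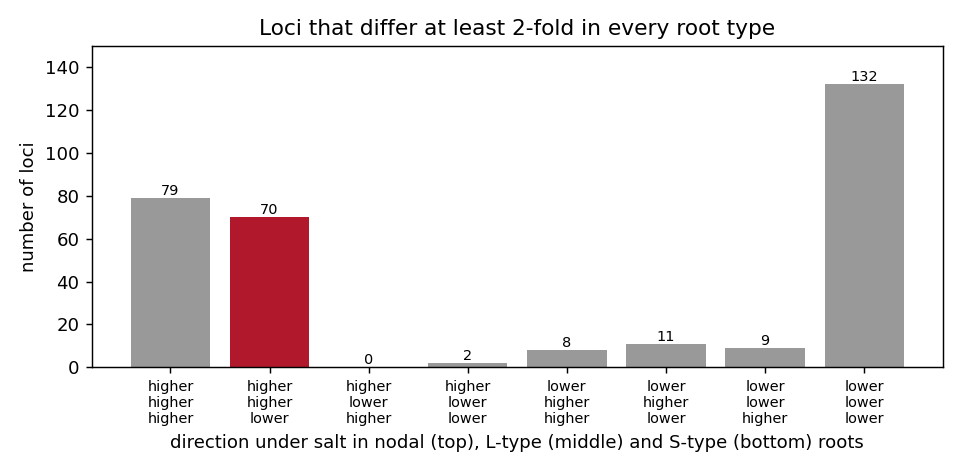
Number of loci in each of the 8 combinations of direction under salt, among the loci with at least 50 in every pair that differ at least 2-fold in nodal, L-type and S-type roots; the red bar is the group of 70. The combination lower in all 3 holds 132 loci, higher in all 3 holds 79, and the mirror of the red bar holds 9.

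The position and length of the loci were not used in choosing them. The 70 loci lay on 12 chromosomes, with 13 on chromosome 4 (18.6% of the group, against 8.53% of the 10332 loci) and 8 on chromosome 8 (11.4% against 6.49%). Chromosome 2 held 4 (5.71% against 12.7%) and chromosome 6 held 2 (2.86% against 8.03%). The other chromosomes held 10 on chromosome 3 (14.3% against 14.6%), 8 on chromosome 1 (11.4% against 14.5%), 6 on chromosome 5 (8.57% against 8.62%), 5 on chromosome 7 (7.14% against 7.57%) and 2 on chromosome 11 (2.86% against 4.11%). Chromosomes 9, 10 and 12 held 4 each (5.71%, against 5.22%, 4.67% and 4.97%). The loci were shorter than most: their median deposited length was 2242 bases (interquartile range 1286 to 4714), against 4549 bases (3105 to 6837) over the 10332 loci, and 51 of the 70 were below that median. Of the 70, 27 (38.6%) overlapped another locus of the table, against 28.1% over all; the libraries kept strand information per the labels, but the strand setting of the counting is unknown here, so reads of overlapping loci may be shared. None of these shares was tested.

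Only 2 pairs of the 70 loci lay within 50 kb of each other. On chromosome 1, loci at 1345117 to 1346047 and 1365585 to 1366502 were 19.5 kb apart with 5 other loci between them. The first had counts of 114.8 in salt nodal against 51.8 in control nodal roots, 123.3 in salt L-type against 60.39 in control L-type roots, and 23.98 in salt S-type against 158.4 in control S-type roots. The second had 447.2 in salt nodal against 49.95 in control nodal roots, 576.1 in salt L-type against 206.2 in control L-type roots, and 31.55 in salt S-type against 414.5 in control S-type roots. Both fell more in S-type roots, by 2.67 and 3.67 on the log2 scale, than the median locus of the group.

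The other pair lay on chromosome 10, at 18707772 to 18711435 and 18718029 to 18958249. The second of these loci spans 240220 bases and holds 40 other loci of the table within its bounds, so its counts may join several genes; the next longest of the 70 spans 24498 bases. It had counts of 12399.5 in salt nodal against 3086.8 in control nodal roots, 6316.9 in salt L-type against 1655.6 in control L-type roots, and 366.0 in salt S-type against 1653.4 in control S-type roots. The first had 183.7 in salt nodal against 3.7 in control nodal roots, 342.4 in salt L-type against 44.86 in control L-type roots, and 34.08 in salt S-type against 93.23 in control S-type roots. Its nodal log2 change of 5.30 was the largest of the 70.

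The authors' deposited table of pairwise comparisons gives p-values and q-values for 1 library against 1 library. In the authors' deposited table, 0 of the 70 loci had a q-value below 0.05 for salt against control in nodal roots, beside 0.0478% of the loci tested there. The count was also 0 in L-type roots in the authors' deposited table (0.0489% over all) and in the S-type comparison (0.13% over all). By unadjusted p-values below 0.05 in the authors' deposited table there were 21 of the 70 in nodal roots (0.968% of the 10332), 10 in L-type roots (1.21%) and 6 in S-type roots (1.09%). These are the contrasts that chose the loci, so nothing is read from the larger shares. The lowest q-value of the 70 in the authors' deposited table was 0.213 (nodal), 0.594 (L-type) and 0.788 (S-type). Between root types under salt, 20 loci had an unadjusted p-value below 0.05 in the authors' deposited table for S-type against nodal roots (6.69% of the 10332) and 9 for S-type against L-type roots (2.05%). Under control the authors' deposited table had 17 for S-type against nodal roots (4.81%) and 12 for S-type against L-type roots (2.59%). None of the 70 passed a q-value of 0.05 in these 4 comparisons of the authors' deposited table either, beside 1.4%, 0.318%, 0.447% and 0.187% of the loci tested, in that order.

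Markers of other tissues were followed by lists of gene IDs written from general knowledge and not checked against an annotation; 0 of the 70 loci were in any of them. The summed count of 8 loci listed for shoot photosynthesis was 1905.5 in salt nodal against 66.6 in control nodal roots and 804.3 in salt L-type against 69.88 in control L-type roots, but 25.24 in salt S-type against 32.57 in control S-type roots. With no minimum on the counts, 6 of its 8 loci were at least 2-fold higher in nodal roots and 7 of 8 in L-type roots, with 2 higher and 2 lower in S-type roots. Over all loci with at least 1 read in the pair, 16.2% were so higher in nodal and 24% in L-type roots, and 11.6% higher and 23.7% lower in S-type roots. Of the listed loci, 0 had the minimum of 50 in every pair, and 3 of the 8 were at 0 in salt S-type and 3 in control S-type roots. The list moves with the rise of the 70 loci in nodal and L-type roots, and its part in that rise was not tested.

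Lists for cell division and for the secondary wall moved with the fall in S-type roots. In nodal and L-type roots, where the 70 loci rose, the sums of both lists were also lower under salt. The 5 loci listed for cell division summed to 61.85 in salt S-type against 475.1 in control S-type roots, with 5 of 5 at least 2-fold lower. All 5 had the minimum of 50 in every pair. Of the 10332 loci with that minimum 11.1% were so lower, beside that 23.7% of all loci with no minimum. The cell division loci summed to 902.1 in salt nodal against 1450.4 in control nodal roots and to 388.9 in salt L-type against 877.4 in control L-type roots, with 1 and 2 of 5 lower. Beside these stand 12.4% and 10.8% of the 10332 loci, and 14.6% and 12.4% of all loci with no minimum. The 3 loci listed for the secondary wall summed to 7.573 in salt S-type against 107.8 in control S-type roots, with 3 of 3 lower and 0 at the minimum of 50 in every pair, to 3500.6 in salt nodal against 4280.0 in control nodal roots and to 151.6 in salt L-type against 194.1 in control L-type roots. The 9 loci listed as water channels summed to 4209.3 in salt S-type against 9757.6 in control S-type roots, with 6 of 9 lower, to 35168.2 in salt nodal against 40683.9 in control nodal roots, and to 11085.3 in salt L-type against 11716.9 in control L-type roots. Beside the 3 of 3 and the 6 of 9 stands the same 23.7% of all loci lower in S-type roots with no minimum. Of the 9 water channels 7 had the minimum, and 11.1% of the 10332 loci with it were lower. The part of these lists in the fall of the 70 loci was not tested.

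Loci lay close to the bounds of the group on both sides. Of the 70 loci, 13 lay within 0.1 on the log2 scale of a 2-fold bound, and 16 other loci missed it by at most 0.1. The locus nearest the bound inside had log2 changes of 1.009 (nodal), 2.576 (L-type) and -1.431 (S-type), and the nearest outside 0.994, 1.812 and -1.403. The lowest of the higher libraries was 50.55 inside, and 49.3 for the nearest locus outside that met the 3 fold bounds. A further 413 loci met the 3 fold bounds but not the minimum of 50.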

How the data were processed

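The loci and lists were chosen with earlier results of these data known. The submitters' processing notes name Cuffdiff 2.2.1, Cufflinks 2.2.1, TopHat2 2.0.11, Bowtie and Trimmomatic 0.32, with build IRGSP-1.0; settings are not given in the sources used here. What the authors deposited per locus is a signal, called the deposited count here: reads divided by 1 size factor per library. Division by its smallest step gave whole reads, within 0.01, for 99.897% to 99.977% of values above 0. Loci with no gene ID held 0.37% to 0.58% of the reads. The authors also deposited FPKM values with p-values and q-values of 15 pairwise comparisons.

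Each group is 1 library, and no p-value is taken as evidence for the 70 loci: a fit over all 6 libraries takes its error from how salt changes differ between root types, by which the loci were chosen. This leaves values, counts and exact 95% intervals, computed with Python 3.11.15 and scipy 1.17.1. The rule and the intervals were tried on simulated counts with counting error alone. That is the error the intervals assume, so the trial could not show how they hold with other variation. The edgeR quasi-likelihood test of salt on recovered reads, additive in root type and added after seeing the data, called 0 of 18936 loci with a gene ID at a Benjamini-Hochberg adjusted p under 0.05 (2081 at an unadjusted p under 0.05), and 0 of the 69 tested loci of the group (0 unadjusted). It tests a mean salt change over the root types. Its error holds the opposite changes that the selection requires, so nothing is read from it for the group. Alternatives rescaled the recovered reads with TMM (edgeR 4.0.16), library totals or DESeq2 1.42.0 size factors from loci with a gene ID, or changed the unit, pseudocount, minimum or fold. With no descriptions, keyword families could not be formed.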

Additional observations from a re-analysis of the deposited data

Results flagged for a closer look

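Several values of the group describe salt changes that run in opposite directions in different root types. Each root type has 1 salt and 1 control library, the loci were chosen for this difference, and it was not tested. The median log2 salt change of the 70 loci in S-type roots minus that in nodal roots was -3.93, and S-type minus L-type roots gave -3.59. For the 4 loci printed by ID, the change in S-type roots minus that in nodal roots was -7.69 on the log2 scale at Os02g0269200, -7.10 at Os02g0684400, -6.29 at Os07g0498400 and -3.77 at Os05g0399700.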

How the results depend on the processing

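The number of loci depended on the bounds. It was 70 as reported, 211 with a minimum of 10, 483 with no minimum and 32 with a minimum of 200, and it was 179 at 1.5-fold, 21 at 3-fold and 10 at 4-fold. The cause lies in the bounds themselves, which admit more or fewer loci. Scaling moved it less: TMM factors gave 78 loci, library totals 81 and DESeq2 size factors 72, which shared 68, 64 and 70 loci with the 70. FPKM gave 67 loci and a pseudocount of 5 gave 65. The median salt changes kept their direction in each root type under TMM, library totals, DESeq2 size factors and FPKM, from 2.24 to 2.43 (nodal), 1.85 to 1.95 (L-type) and -1.76 to -1.56 (S-type), and under a pseudocount of 5. That direction was all but fixed, since every locus had passed the 2-fold rule. Library totals moved the nodal median of all 10332 loci from -0.14 to 0.02; relative to it the 70 loci had 2.41 against 2.40 as reported. Scaling by library totals, an alternative chosen after seeing the data for differences between root types, moved the median of salt nodal minus control S-type roots to 1.04 from 0.66 and of salt L-type minus control S-type roots to 0.50 from 0.11. Relative to all loci these were 0.75 and 0.28 with both scalings. The same scaling moved S-type minus nodal roots to 1.64 from 1.86 under control and to -3.02 from -2.55 under salt. Relative to all loci the control value was 1.79 with both scalings, and the salt value -2.65 against -2.66 as reported. Rescaling a library shifts all its loci nearly alike, so values relative to all loci could hardly change. With FPKM, Os07g0498400 had log2 changes of 2.48 (L-type) and -3.38 (S-type), where 1 is added to values below 1. No paired analysis was possible because the groups share only replicate number 1; the edgeR fit additive in root type pairs salt with control by root type, not by replicate. Leaving out a library leaves no ratio for its root type. Depth limits loci with fewer than 10 reads in a library.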
